A study of Mus musculus with 4 samples.

Results

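The genes described here are 7 that encode parts of the contractile apparatus of heart muscle: Myh6, Myh7, Myl4, Myl7, Tnnt2, Tnnc1 and Actc1. They were measured in cells sorted by green fluorescent protein (GFP) from neural tubes of E10.5 mouse embryos, where no heart muscle is found. The genes were picked because their signals had been seen to differ between the 2 sorted populations, so their differences are given as a description and no test is attached to them. They are read by 11 of the 45037 probe sets that are not array controls, namely those whose annotation names 1 of these genes and no other. By its brightest probe set each gene passed the filter on dim signals, so all 7 are among the 12740 genes tested.

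The populations came from 2 transgenic lines on mixed B6SJLF1 and ICR backgrounds, with 2 arrays each, which the study calls biological replicates. In Atoh1BAC-GFP embryos (called Atoh1-GFP here) a bacterial artificial chromosome with the Atoh1 locus drives GFP in the lineage of dorsal interneuron 1 (dI1). A Neurog1 enhancer drives it in dNeurog1-GFP embryos in dorsal cells that form dorsal interneuron 2 (dI2). Neural tubes were taken from the forelimb to the hindlimb level, dissociated with trypsin and separated on either of 2 models of cell sorter. The labels do not state which sorter served which sample, how many embryos were pooled, or in so many words that GFP-positive cells were arrayed, as is assumed here. Sorted cells without GFP and heart tissue were not analysed here.

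Heart muscle contracts when myosin, a motor of heavy and light chains, pulls on actin filaments, and the troponin complex on those filaments makes the pull depend on calcium. Myh6 (alpha-myosin heavy chain) and Myl7 (atrial regulatory light chain) are known as largely restricted to heart muscle in the embryo. Actc1 (cardiac alpha-actin), Tnnt2 (troponin T), Tnnc1 (troponin C), Myl4 (atrial essential light chain) and Myh7 (beta-myosin heavy chain) are known from the heart too, but embryonic or slow skeletal muscle also uses them. Myh6 and Myh7 lie next to each other on mouse chromosome 14, with no other protein-coding gene listed between them in RefSeq's annotation of GRCm38.p6.

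The sequence around the gene start is shown for Myh6 and Myl7, the pair with the largest differences on the replicate 2 arrays. It is also shown for Actc1, whose signals were nearly equal on those arrays. The windows run from 250 bases before to 50 after the gene start, as RefSeq lists it on GRCm38.p6, on the minus strand at chr14:54966558-54966857 for Myh6, chr11:5898733-5899032 for Myl7 and chr2:114052826-114053125 for Actc1. Capitals mark matches to the CArG box, the motif bound by serum response factor, a regulator of muscle genes.
Myh6: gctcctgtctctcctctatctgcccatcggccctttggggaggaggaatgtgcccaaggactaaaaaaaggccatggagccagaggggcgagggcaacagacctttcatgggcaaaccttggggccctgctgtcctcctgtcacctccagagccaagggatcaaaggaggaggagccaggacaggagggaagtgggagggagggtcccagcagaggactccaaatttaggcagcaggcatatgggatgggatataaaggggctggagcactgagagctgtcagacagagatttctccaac
Myl7: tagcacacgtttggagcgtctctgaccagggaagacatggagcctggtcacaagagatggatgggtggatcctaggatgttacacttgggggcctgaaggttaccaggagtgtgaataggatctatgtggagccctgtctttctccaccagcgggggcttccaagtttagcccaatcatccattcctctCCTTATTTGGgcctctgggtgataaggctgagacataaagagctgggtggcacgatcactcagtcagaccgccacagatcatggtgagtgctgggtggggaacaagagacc
Actc1: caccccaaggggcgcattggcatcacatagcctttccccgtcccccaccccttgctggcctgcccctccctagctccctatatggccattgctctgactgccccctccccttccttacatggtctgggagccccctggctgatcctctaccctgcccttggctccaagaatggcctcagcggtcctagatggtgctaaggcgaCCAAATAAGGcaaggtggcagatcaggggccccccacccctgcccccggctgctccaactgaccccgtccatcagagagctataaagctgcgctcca

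The 7 genes have 9 such windows in the table, and all motifs were searched on both strands. The CArG box was found in 2 of the 9, as CCTTATTTGG from 61 bases before the start of Myl7 and as CCAAATAAGG from 47 bases before the start of Actc1, and in 535 of all 32851 windows (1.63%). The motif of MEF2 factors, also regulators of muscle genes, was found in 0 of the 9 windows and in 3.19% of all. CATTCC, the core bound by TEAD factors, was in 5 of the 9 and in 14.7% of all, and GATAA, bound by GATA factors, in 2 of the 9 and in 25.4%. CANNTG, the E box, was in 8 of the 9 and in 72.3% of all windows, and TATAAA, the letters of the TATA box, in 2 of the 9 and in 13.6%. Both TATAAA matches began after the listed gene start, by 1 base in Myh6 and by 33 bases in Actc1. These matches describe the letters of the windows. They are not known sites here, and the arrays hold no measure of factor binding.

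Each value below is a MAS5 signal, the intensity that this Affymetrix method gives for a probe set, after all 4 arrays were brought to a trimmed mean of 500. As deposited, the replicate 1 arrays had been scaled to a trimmed mean of 250 and the replicate 2 arrays to 500, in both populations. The replicate number is therefore treated as a processing batch, and log2 differences of the heart muscle genes are given within it. Other comparisons cross it, namely overlap between the populations, differences with an array left out, and array 2 against array 1. The main limma calls leave it out of the model, and limma calls with it as a block are given beside them. Log2 differences are those of log2(signal + 32), with dNeurog1-GFP subtracted from Atoh1-GFP, and are smaller than true changes where genes are dim. Signals of different probe sets are not on a common scale per transcript, so levels are compared across arrays and not between genes. For orientation at the dim end, 12 genes of milk, sperm, pancreas, kidney and eye had signals of up to 121, 92.8, 135 and 56.3 on Atoh1-GFP 1, Atoh1-GFP 2, dNeurog1-GFP 1 and dNeurog1-GFP 2. Their medians were 27.9 and 34.4 on the replicate 1 arrays against 9.72 and 11.5 on the replicate 2 arrays, so equal trimmed means did not make dim signals equal.

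The labels held for the marker genes of both lines. Atoh1, the factor that specifies dI1, read 21412 and 19675 in Atoh1-GFP against 1772 and 1861 in dNeurog1-GFP samples, and Neurog1, of the dI2 domain, had 172 and 176 against 1388 and 2469. All 10 neural markers, among them Sox2, Tubb3 and Elavl3, exceeded the range of the 12 reference genes on all 4 arrays. Their median log2 difference was 0.58, with 0 called by limma without the replicate number in the model, 6 at an unadjusted p under 0.05, and 5 called higher in Atoh1-GFP with it as a block. Over all genes, limma called 28 of 12740 (0.22%) at an adjusted p under 0.05, with Atoh1-GFP higher in 16 (0.126%) and lower in 12 (0.0942%). Blocking on the replicate number gave 829 (6.51%), with Atoh1-GFP higher in 354 (2.78%) and lower in 475 (3.73%). At an unadjusted p under 0.05 there were 1094 genes (8.59%) without the block and 2864 (22.5%) with it. These counts are the background of the gene lists below. For the 7 genes no call is reported.

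All 7 heart muscle genes had higher signals in Atoh1-GFP than in dNeurog1-GFP cells within both replicate numbers, as did 4242 of all 12740 genes tested. For the 7 the median log2 difference was 1.22, or 1.34 within replicate 1 and 0.78 for the replicate 2 arrays. Over all genes tested the medians were 0.01, 0.01 and -0.01. Without dNeurog1-GFP 1 the median of the 7 was 0.50, and without dNeurog1-GFP 2 it was 1.94. In 5 of the 7 both Atoh1-GFP arrays exceeded both dNeurog1-GFP arrays, which 15.9% of all genes tested did. A log2 difference of at least 1 was seen within replicate 1 in 6 of the 7, within replicate 2 in 3 and within both in 2, against 3.47%, 2.06% and 1.11% of all genes. The genes were chosen on this contrast, so these shares support nothing about it. In RNA of sorted cells, fewer cells of a type and less RNA per cell cannot be told apart.

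**Figure D1:**
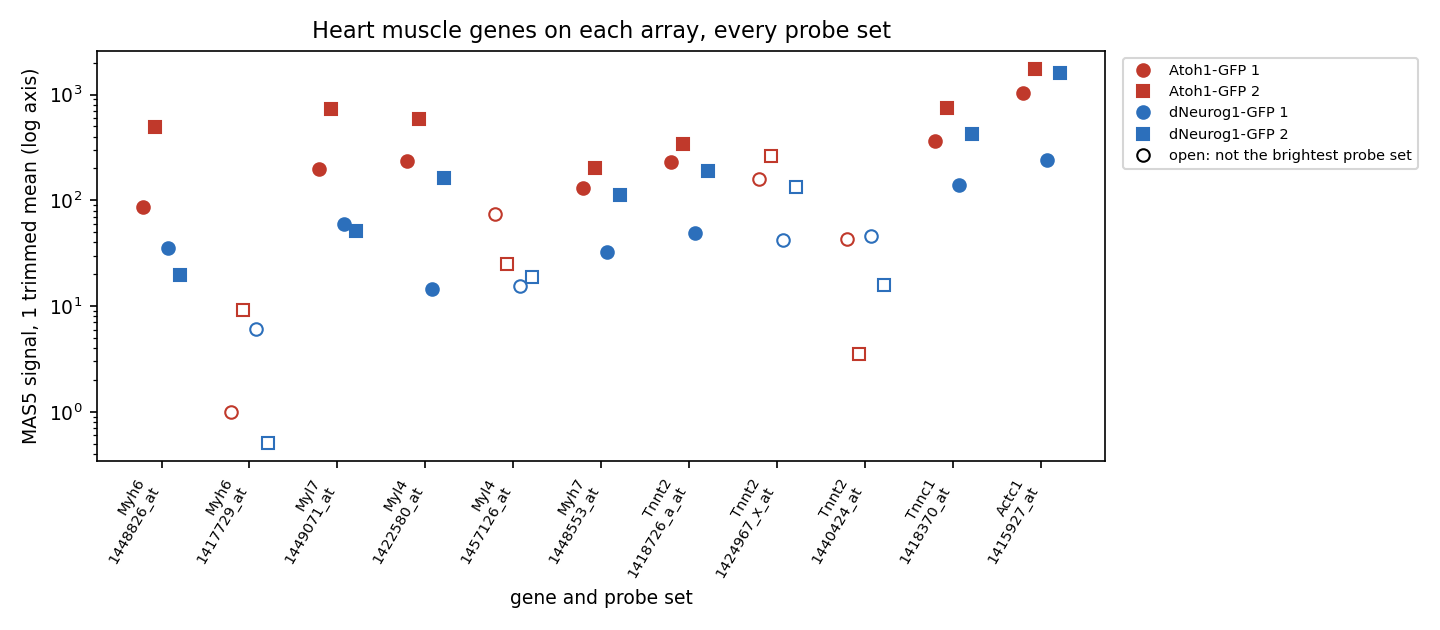
MAS5 signal (vertical log axis, all arrays at 1 trimmed mean) of each of the 11 probe sets of the 7 genes (horizontal axis), with 1 point per array, circles for replicate 1 and squares for replicate 2. The Atoh1-GFP 2 array stands highest for the brightest probe set of every gene, while the dNeurog1-GFP 2 array is low for Myh6 and Myl7 (19.8 and 51.2) and close to the Atoh1-GFP arrays for Actc1 (1595).

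Among the myosin heavy chains, Myh6 had signals of 86.4 and 498 on Atoh1-GFP 1 and 2 against 35.2 and 19.8 on dNeurog1-GFP 1 and 2. Only Atoh1-GFP 2 stood out, since the other 3 arrays lay within the range of the 12 reference genes. The log2 difference was 0.82 within replicate 1 and 3.36 within replicate 2, a mean of 2.09 ± 1.79 (SD, n = 2). Without Atoh1-GFP 2, Myh6 fell below the filter on dim signals, and its log2 difference with no filter was 1.01, while without Atoh1-GFP 1 it was 3.17. Its other probe set, 1417729_at, read 0.989 and 9.18 in Atoh1-GFP against 6.10 and 0.510 in dNeurog1-GFP samples, so it was dim on every array and did not repeat the pattern.

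Myh7, the slow and ventricular heavy chain, had signals of 131 and 202 in Atoh1-GFP against 32.2 and 112 in dNeurog1-GFP samples. The groups did not overlap, but dNeurog1-GFP 2 lay nearer to Atoh1-GFP 1 than to dNeurog1-GFP 1, whose signal was within the range of the reference genes. The log2 difference was 1.34 within replicate 1 and 0.70 within replicate 2 (mean 1.02 ± 0.46, SD, n = 2), and the mean was 0.43 without dNeurog1-GFP 1 and 1.60 without dNeurog1-GFP 2. The pattern thus differed between the neighbouring heavy chain genes, Myh6 being low on both dNeurog1-GFP arrays and Myh7 on 1. A further 2 probe sets are annotated to both genes and were left out for that reason.

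Of the light chains, Myl7 had signals of 198 and 735 in Atoh1-GFP against 59.3 and 51.2 in dNeurog1-GFP samples. Both Atoh1-GFP arrays were high, and both dNeurog1-GFP arrays lay within the range of the reference genes. Its log2 differences, 1.33 within replicate 1 and 3.20 within replicate 2, averaged 2.27 ± 1.32 (SD, n = 2). Without Atoh1-GFP 2 the difference was 1.40.

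Myl4 had signals of 235 and 594 in Atoh1-GFP against 14.4 and 162 in dNeurog1-GFP samples. The groups did not overlap. dNeurog1-GFP 1 lay within the range of the reference genes, which limits the replicate 1 difference. The log2 difference was 2.53 within replicate 1 and 1.69 within replicate 2, a mean of 2.11 ± 0.59 (SD, n = 2). Left-out arrays moved it to between 1.08, without dNeurog1-GFP 1, and 3.14, without dNeurog1-GFP 2. The second Myl4 probe set, 1457126_at, was dim, with 74.4 and 25.1 against 15.5 and 18.9, and showed a log2 difference past 1 within replicate 1 alone (1.16, and 0.17 within replicate 2).

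Of the troponins, Tnnt2 was read by 3 probe sets. The brightest, 1418726_a_at, had signals of 229.7 and 343 in Atoh1-GFP against 49.5 and 189.5 in dNeurog1-GFP samples. Within replicate 1 the log2 difference was 1.68, and within replicate 2 it was 0.76 (mean 1.22 ± 0.65, SD, n = 2), with 0.50 left without dNeurog1-GFP 1 and 1.94 without dNeurog1-GFP 2. Probe set 1424967_x_at gave 1.37 and 0.83 and thus repeated it, whereas 1440424_at was dim and gave -0.05 and -0.43. In the first 2 of these the groups did not overlap, and dNeurog1-GFP 1 was the lowest array, within the range of the reference genes for the brightest probe set.

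Tnnc1, the calcium-binding troponin subunit, had signals of 366 and 742 in Atoh1-GFP against 139 and 420.2 in dNeurog1-GFP samples. The groups overlapped, since dNeurog1-GFP 2 exceeded Atoh1-GFP 1. The log2 difference was 1.22 within replicate 1 and 0.78 within replicate 2 (mean 1.0 ± 0.31, SD, n = 2), and it was 0.30 without dNeurog1-GFP 1, 0.52 without Atoh1-GFP 2 and 1.70 without dNeurog1-GFP 2. All 4 signals exceeded the range of the reference genes, which among the 7 genes held for Tnnc1 and Actc1. On dNeurog1-GFP 1 Tnnc1 did so narrowly, with 139 against a range of up to 135.

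Actc1, the actin of the thin filament, had signals of 1029.6 and 1729 in Atoh1-GFP against 243 and 1595 in dNeurog1-GFP samples. A single array, dNeurog1-GFP 1, stood low, and the other 3 overlapped. The log2 difference was 1.95 within replicate 1 and 0.11 within replicate 2 (mean 1.03 ± 1.30, SD, n = 2). Without dNeurog1-GFP 1 its sign turned, to -0.25, while it was 2.31 without dNeurog1-GFP 2 and 0.67 without Atoh1-GFP 2.

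**Figure D2:**
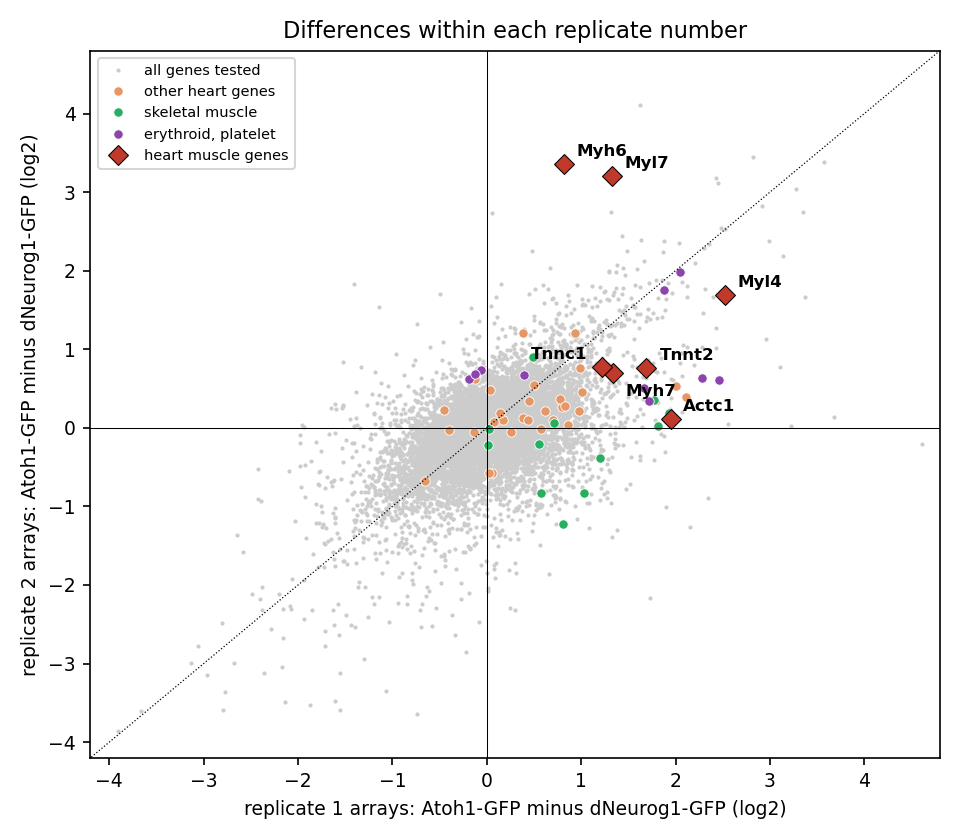
Log2 difference, Atoh1-GFP minus dNeurog1-GFP, within the replicate 1 arrays (horizontal axis) and within the replicate 2 arrays (vertical axis), with 1 point per gene tested and the dotted line where both are equal. Myh6 and Myl7 lie far above the line (3.36 and 3.20 within replicate 2), the other 5 of the 7 genes lie below it, and the skeletal muscle genes have medians of 0.76 on the horizontal and -0.11 on the vertical axis.

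By the replicate number with the larger difference, the 7 genes fell into 2 groups, a split made after their values were seen. Myh6 and Myl7 differed more within replicate 2, where they averaged 3.28, than within replicate 1, where they averaged 1.07. Both lay within the range of the reference genes on both dNeurog1-GFP arrays, and Myh6 on Atoh1-GFP 1 too. That range reached 135 on dNeurog1-GFP 1 and 56.3 on dNeurog1-GFP 2, which limits the comparison of these averages. The other 5 differed more within replicate 1, with a median of 1.68 against 0.76 within replicate 2. Myl4 alone of these 5 had a log2 difference past 1 within both replicate numbers (2.53 and 1.69). With 1 array per population and replicate number, a difference between the replicate numbers has no test.

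The same 4 values can be read within each population, which restates this split and is no second observation of it. From dNeurog1-GFP 1 to dNeurog1-GFP 2, the signal was 6.56-fold higher in Actc1 and 3.02-fold higher in Tnnc1. The Tnnc1 signal on dNeurog1-GFP 1, 139, was barely above the reference range (up to 135), which limits its fold. No fold is given for Myl4, Tnnt2 and Myh7, whose signals on dNeurog1-GFP 1 lay within the range of the reference genes, nor for Myh6 and Myl7, which lay within it on both arrays. On log2(signal + 32) Actc1, Tnnc1, Myl4, Tnnt2 and Myh7 were each at least 1 unit higher on dNeurog1-GFP 2, which 2.66% of all genes tested were. In Atoh1-GFP cells all 7 genes were higher on array 2 than on array 1, as were 6534 of all 12740 genes tested. Among the 7 the ratios ran from 1.49 in Tnnt2 to 3.71 in Myl7, apart from Myh6, which was within the reference range on array 1. There 3 of the 7, Myh6, Myl7 and Myl4, were at least 1 log2 unit higher, against 2.68% of all genes. The 12 reference genes had lower medians on the replicate 2 arrays, but they are dim and do not measure scaling at brighter signals. The part of scaling in these ratios was not tested.

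**Figure D3:**
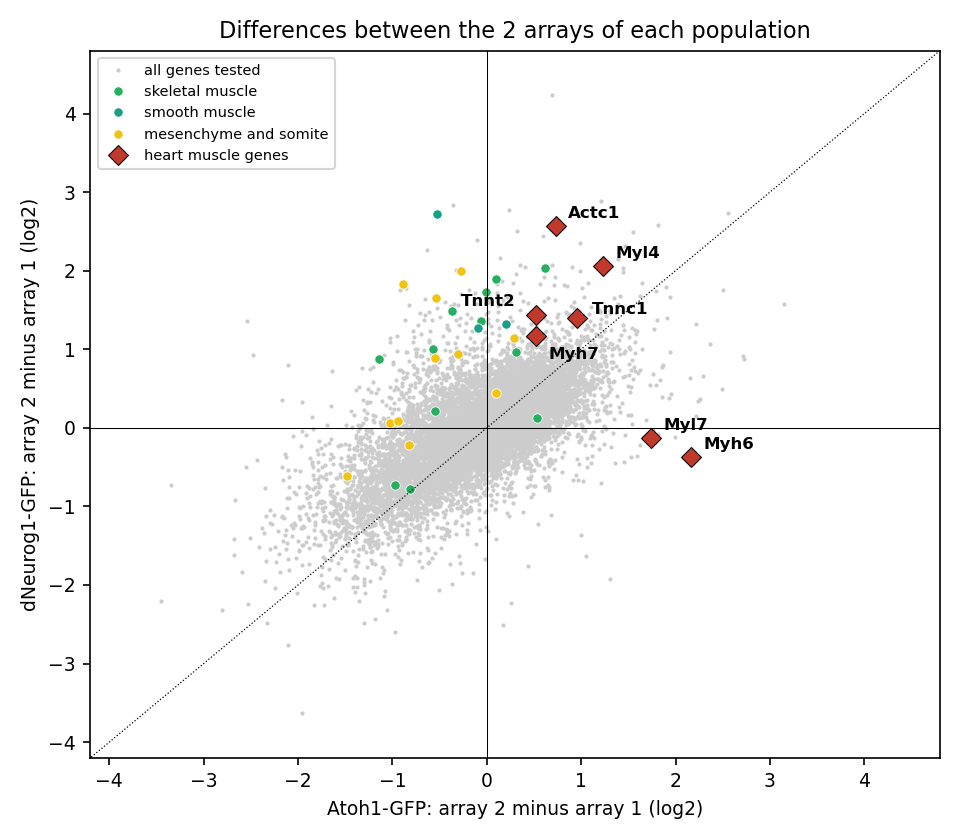
Log2 difference between array 2 and array 1 of Atoh1-GFP cells (horizontal axis) and of dNeurog1-GFP cells (vertical axis), with 1 point per gene tested and the dotted line where both are equal. Actc1, Myl4, Tnnt2, Tnnc1 and Myh7 lie above 1 on the vertical axis beside 6 of the 12 skeletal muscle genes, and Myl7 and Myh6 lie just below 0 there and far to the right.

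Other genes of heart muscle were read from lists of 56 genes in 3 groups, of which 55 were measured and 30 passed the filter on dim signals. Of these 30, limma called 0 without and 0 with the replicate block, against 0.22% and 6.51% of all genes. At an unadjusted p under 0.05 there were 1 and 7 of the 30, against 8.59% and 22.5% of all genes. Their median log2 difference was 0.34 (0.45 within replicate 1 and 0.21 within replicate 2), and 11 of the 30 had both Atoh1-GFP arrays above both dNeurog1-GFP arrays, as 15.9% of all genes did. In 0 of the 30 was the log2 difference at least 1 within both replicate numbers, as it was in 1.11% of all genes. Of the 55 measured, 26 lay within the range of the reference genes on all 4 arrays.

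Among the contractile genes, Tnni1, the slow skeletal and embryonic heart troponin I, had signals of 231 and 304 in Atoh1-GFP against 29.0 and 225 in dNeurog1-GFP samples, the same order of arrays as Myh7 and Tnnt2. Mybpc3, cardiac myosin-binding protein C, had 327 and 147 against 146 and 97.9, with the replicate 1 and 2 differences 1.01 and 0.46. Nexn, an actin-binding protein of the Z disc, went the other way, with 257 and 160.4 against 422 and 275. With the block, the limma adjusted p was 0.15 for Tnni1, 0.16 for Mybpc3 and 0.12 for Nexn, none of them called. Actn2, the actinin of the Z disc, had 177 and 152 against 115 and 94.2, while Tcap, the titin cap, had 177 and 102 against 154 and 93.2. Smyd1, a methyltransferase of muscle, was high on the replicate 1 arrays, with 297 and 121 against 326 and 67.3. Among genes picked after their values were seen, titin, Ttn, the giant spring of the sarcomere, had 139 and 85.8 against 10.6 and 49.3. The ventricular light chain genes Myl2 and Myl3, picked likewise, had 71.2 and 66.2 against 25.1 and 28.6, and 73.3 and 90.9 against 113 and 73.3.

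Among the genes of calcium handling, energy supply and secretion, Nppa, the atrial natriuretic peptide, is given because of its values. Its signals were 92.0 and 122 in Atoh1-GFP against 32.8 and 34.8 in dNeurog1-GFP samples, and its log2 difference of 1.07 (0.94 and 1.20 by replicate number) missed the threshold (limma adjusted p = 0.73 without and 0.083 with the block). On Atoh1-GFP 1 and both dNeurog1-GFP arrays its signal lay within the range of the reference genes. Slc8a1, a sodium-calcium exchanger, had 245 and 328 against 108 and 179.6 (adjusted p = 0.55 and 0.077). The sarcoplasmic calcium pump gene Atp2a2, which most tissues use, was level at 7531 and 7184 against 8302 and 7470. The fatty acid binding protein gene Fabp3 had 221 and 229.6 against 153 and 174, and the creatine kinase gene Ckm had 187 and 65.9 against 256 and 67.5. The calcium release channel gene Ryr2 and the pump inhibitor gene Sln, also picked after their values were seen, had no signal above 50.6 on any array.

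The transcription factors of heart muscle were dim. Of the 11 listed, 6 lay within the range of the reference genes on all 4 arrays, and 5 passed the filter on dim signals. Hand2 had signals of 242 and 230.1 in Atoh1-GFP against 122 and 184 in dNeurog1-GFP samples, and Hand1 had 215 and 80.1 against 104 and 77.6. Gata4 had 161 and 57.8 against 80.5 and 37.9, and Gata6 had 148 and 105 against 132 and 88.3. Mef2c, which neurons and vessels also express, was the only listed factor above the reference range on all 4 arrays, with 218 and 199 against 136 and 201. On dNeurog1-GFP 1 it was so only narrowly, against a range of up to 135. Nkx2-5 and Tbx5, defining factors of the heart lineage and of atria and forelimb, were picked after their values were seen. Nkx2-5 had 77.5 and 23.6 against 23.9 and 38.4, and Tbx5 had 28.9 and 7.98 against 24.8 and 32.5. Of the 5 factors tested, limma called 0 in either model, against 0.22% of all genes without the block and 6.51% with it. At an unadjusted p under 0.05 there were 0 in both, against 8.59% and 22.5% of all genes. The median log2 difference of the 5 factors was 0.45 (0.78 within replicate 1 and 0.19 within replicate 2).

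Skeletal and smooth muscle express several of the 7 genes as well, and 15 of their 26 listed genes passed the filter. Of these, limma called 0 in either model, against 0.22% of all genes without the block and 6.51% with it. At an unadjusted p under 0.05 there were 0 without and 3 with the block, against 8.59% and 22.5% of all genes. The 15 genes had a median log2 difference of 0.94 within replicate 1 but -0.18 within replicate 2. Myh3, embryonic myosin heavy chain, had signals of 389.8 and 388 in Atoh1-GFP against 78.9 and 335 in dNeurog1-GFP samples. Mylpf, the fast regulatory light chain, had 393 and 496 against 227 and 474. Acta1, skeletal alpha-actin, had 316 and 341 against 67.2 and 337, and Tnnt1, slow troponin T, had 253 and 241 against 51.3 and 181. In each of these the low array was dNeurog1-GFP 1, as it was in Actc1. Without dNeurog1-GFP 2, Myh3 alone of the 5 heart and muscle lists was called by limma, at a log2 difference of 1.92. That setting leaves a single dNeurog1-GFP array, assumed to vary as the Atoh1-GFP arrays do. On that array the Myh3 signal, 78.9, lay within the range of the reference genes, which limits the difference.

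The myogenic factor genes, which define skeletal muscle precursors, differed among themselves. Myog had 201 and 149 in Atoh1-GFP against 82.1 and 289 in dNeurog1-GFP samples, and Myf5 had 113 and 191 against 65.1 and 366, both highest on dNeurog1-GFP 2. Myod1, added after its values were seen, was instead higher on the replicate 1 arrays, with 148 and 59.6 against 146 and 75. The smooth muscle genes Acta2 and Tagln had 1085 and 1014 against 384 and 976, and 262 and 172 against 25.8 and 348. Of the 15 genes, 9 were at least 1 log2 unit higher on dNeurog1-GFP 2 than on dNeurog1-GFP 1, against 2.66% of all genes. Dim signals limit this count. Among those named, Myh3, Acta1, Tnnt1, Myog, Myf5 and Tagln lay within the range of the reference genes on dNeurog1-GFP 1, and Acta2 above it. The part of skeletal or smooth muscle cells in the signals of Actc1, Myl4, Tnnt2, Tnnc1 and Myh7 was not tested.

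**Figure D4:**
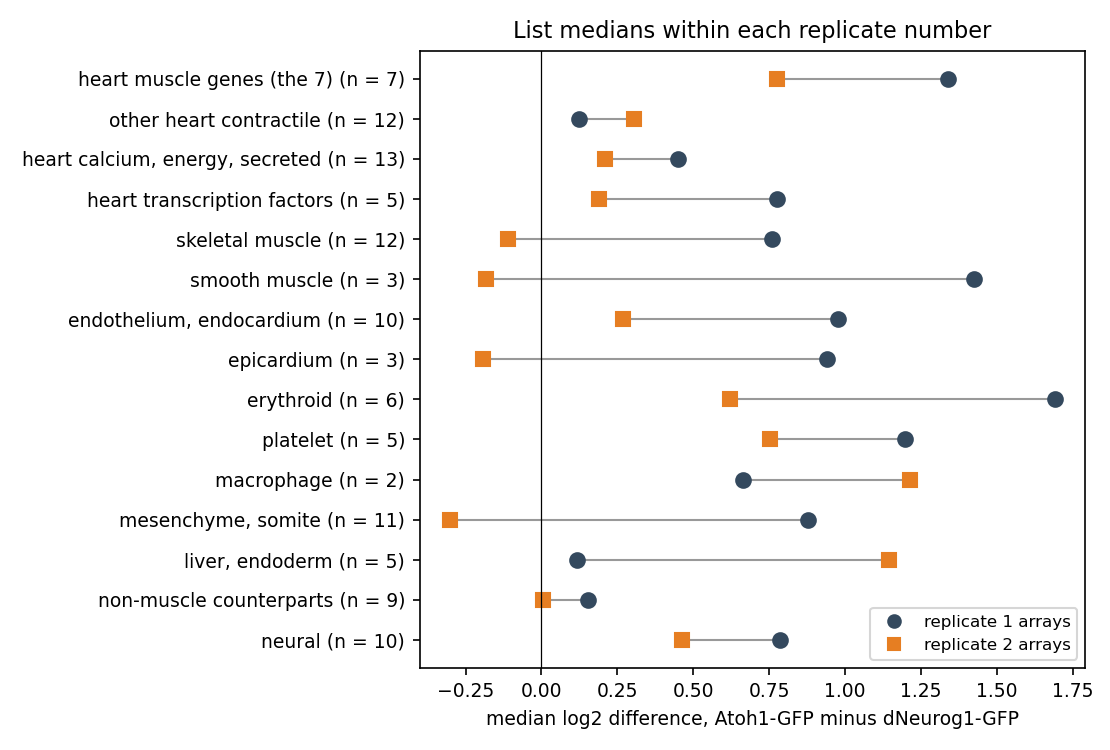
Median log2 difference, Atoh1-GFP minus dNeurog1-GFP, of each gene list within the replicate 1 arrays (circles) and within the replicate 2 arrays (squares), over the genes that passed the filter (n beside each name). The 7 heart muscle genes stand at 1.34 and 0.78, the skeletal muscle list at 0.76 and -0.11, and the non-muscle counterparts near 0 in both.

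Genes of other cells outside the nervous system also differed between the arrays. The summed signal of 7 measured erythroid genes was 30989 and 32149 in Atoh1-GFP against 7971 and 23172 in dNeurog1-GFP samples. The embryonic globin gene Hbb-y had 17369 and 17478 against 5247 and 13725. Sums over a list add unlike probe sets, and for dim genes they follow the scaling: the 12 reference genes summed to 553 and 219.99 against 486 and 199. Of 5 platelet genes tested, 3 had an unadjusted p under 0.05 in both models (8.59% of all genes without the block, 22.5% with it). With limma 0 were called without the block and 2 with it, against 0.22% and 6.51% of all genes. These were the chemokine genes Pf4, with 598 and 988 against 139 and 270.1, and Ppbp, with 116 and 423 against 3.72 and 82.8. Their log2 differences were 1.82 and 2.02 (limma adjusted p = 0.0064 and 0.012 with the block, 0.15 and 0.50 without it). On Atoh1-GFP 1 and dNeurog1-GFP 1 Ppbp lay within the range of the reference genes, which limits its replicate 1 difference and its call. Gp1bb, not called, had 369 and 229 against 143 and 123, a log2 difference of 0.98 (limma adjusted p = 0.069 with the block). The platelet integrin gene Itga2b had 307 and 252 against 354 and 153, and Treml1 had 133 and 87.8 against 148 and 42.8. Of 7 macrophage genes 2 passed the filter and 4 lay within the reference range on all arrays, and the receptor gene Csf1r had 307 and 270.1 against 177 and 100.5. The part of these cells in the heart muscle signals was not tested.

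Endothelial and endocardial genes had a summed signal of 2681 and 1388 in Atoh1-GFP against 1279 and 1303 in dNeurog1-GFP samples, over 11 measured genes. The 7 heart muscle genes summed to 2275 and 4843 against 573 and 2549. Mesenchyme and somite genes summed to 7440 and 5222 against 3591 and 7897, and the 5 epicardial genes to 620.4 and 378 against 286 and 492. The endothelial, mesenchyme and epicardial lists had 10, 11 and 3 genes tested, and limma called 0 of them in either model. Over all genes the shares called were 0.22% without the block and 6.51% with it. At an unadjusted p under 0.05 there were 0, 0 and 0 without the block, against 8.59% of all genes. With the block there were 5, 0 and 0, against 22.5% of all genes. Their part in the heart muscle signals was not tested. No marker of any list was at a signal of 0.

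Among liver and endoderm genes, Afp, alpha-fetoprotein of yolk sac and fetal liver, had signals of 835 and 2110 in Atoh1-GFP against 215 and 646 in dNeurog1-GFP samples. Its log2 difference of 1.74 (1.81 and 1.66 by replicate number) was called with the block (limma adjusted p = 0.0043) and not without it (0.40). Alb, albumin, had 137 and 217 against 124 and 80.6, and the list summed to 1240.3 and 2723 against 592 and 935. Their part in the heart muscle signals was not tested.

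The non-muscle myosins and actins, counterparts of the 7 genes outside muscle, showed a median difference near 0. Actb, beta-actin, had 14708 and 18628 in Atoh1-GFP against 16054 and 12840 in dNeurog1-GFP samples, and Actg1, gamma-actin, had 21717 and 24140 against 19172 and 17780. Myh10, non-muscle myosin heavy chain, had 6496 and 7716 against 5833 and 7682, and the light chain gene Myl12a had 5782 and 6096 against 5569 and 6229. Single members spread more: Myh9 and Myh14, further such heavy chains picked after their values were seen, had 1236 and 2021 against 1004 and 2398, and 204 and 11.6 against 159 and 112. Over 9 such genes that passed the filter the median log2 difference was 0.02 (0.15 and 0.01 within replicates 1 and 2). Of the 9, limma called 0 in either model, against 0.22% of all genes without the block and 6.51% with it. At an unadjusted p under 0.05 there were 0 in both, against 8.59% and 22.5% of all genes.

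To find genes with the same order of arrays, each gene's log2(signal + 32) values over the 4 arrays were centred on their own mean and set against the mean centred profile of the 7 genes. That profile was 0.20 and 1.33 in Atoh1-GFP against -1.35 and -0.19 in dNeurog1-GFP samples. The 10 genes outside the 7 that came nearest by Euclidean distance were Stra6l (0.09), Igfbp5 (0.24), Igfbpl1 (0.28), Lratd2 (0.31), Fry (0.31), Afp (0.32), 9330159F19Rik (0.35), Klf7 (0.40), Svil (0.41) and Chrnb4 (0.42). Stra6l had signals of 404 and 978 in Atoh1-GFP against 127 and 326 in dNeurog1-GFP samples, and Igfbp5, a binding protein of insulin-like growth factors, had 2917 and 5478 against 764 and 1912. The 10 were mixed in kind, with Klf7, a zinc finger factor of neurons, Chrnb4, a neuronal acetylcholine receptor subunit, and Afp, of yolk sac and fetal liver. What they share besides the order of arrays was not tested. The 7 genes themselves lay 0.57 (Tnnt2) to 1.42 (Myh6) from their own mean profile, and 24 to 1006 other genes lay nearer. Over all genes the median distance was 1.98.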

How the data were processed

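RNA of 4 samples was measured on Affymetrix mouse arrays. The authors deposited linear MAS5 intensities, a method named in the submitters' processing notes without a version or scaling target. Because the deposited intensities had trimmed means of 250 or 500 by replicate number, each array was multiplied to a trimmed mean of 500 (2% left out at each end). The 64 control probe sets were dropped, and 27022 of 45037 passed a filter at the 40th percentile of the mean signal (63.45). Symbols came from the platform annotation (34945 probe sets with 1 symbol, 932 with several, 9160 with none), and only probe sets with 1 were used. The brightest kept probe set stood for a gene. limma 3.58.1 (R 4.3.3, moderated with a trend on intensity) compared the populations on log2(signal + 32) over 12740 genes, without the replicate number, with Benjamini-Hochberg adjustment and a threshold of 0.05, and again with the replicate number as a block. The code was tested on simulated data.

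Whether the numbers pair the samples is not given in the labels. Across 12740 genes the replicate 2 minus 1 differences of the populations correlated at r = 0.66, with the 2 pairs sharing the scaling step, and genes are not independent replicates. The number of arrays limits the precision.

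The 7 genes and all lists were chosen with earlier results of these data known. Of each list up to 6 genes were to be named, called genes first and then the brightest, and genes named outside this rule are said to be so. Profile likeness was the Euclidean distance between centred values. Promoter windows came from RefSeq's GRCm38.p6 and matched all 7 genes. Other scalings, pseudocounts and filters, the mean of probe sets, a model without the trend and left-out arrays were tried.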

Additional observations from a re-analysis of the deposited data

How the results depend on the processing

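The median log2 difference of the 7 genes (1.22) lay between 0.87 and 1.44 under other scalings, filters, offsets and probe set rules. With 1 array left out it ran from 0.50, without dNeurog1-GFP 1, to 1.94, without dNeurog1-GFP 2. Within replicate 1 the median (1.34) was 0.89 with the larger of the other offsets tried and 1.79 with the smaller, since the offset damps dim signals by construction, and within replicate 2 it stayed between 0.67 and 0.83. Of the single genes, Actc1 alone changed sign, to -0.25 without dNeurog1-GFP 1 (2.31 without dNeurog1-GFP 2). Myh6 and Myh7 left the tested set with a filter at the 60th percentile, and Myh6 without Atoh1-GFP 2. A setting without that array and without a filter was therefore added after seeing the data, and gave 1.01 for Myh6 against 2.09. The count of other heart and muscle genes called was 0 under all settings except without dNeurog1-GFP 2, where it was 1. The count over all genes (28) was 829 with the replicate block, 18 with the filter at the 60th percentile, 14 with the mean of probe sets, 14 without a filter, 0 without the intensity trend, 18 with a common 75th percentile (Atoh1-GFP higher in 7 and lower in 11), 13 on the values as deposited (1 and 12), 154 to 379 with 1 array left out and 166 without Atoh1-GFP 2 and without a filter. The cause of these changes was not tested. The replicate block left the log2 differences of the 7 genes as they were and changed the calls of Pf4, Ppbp and Afp, as given beside them. Signals near those of the 12 reference genes limit what can be read from Myh6 on 3 arrays and from Myl7 on both dNeurog1-GFP arrays. They also limit Myh7, Myl4, Tnnt2 and Tnnc1 on dNeurog1-GFP 1.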
